A study of Mus musculus with 2 samples.

Results

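The transcripts of 10 splicing regulators other than the muscleblind proteins were examined for bound Mbnl2 in mouse quadriceps muscle. They were the CELF genes Celf1 and Celf2, the RBFOX genes Rbfox1 and Rbfox2, the polypyrimidine tract binding genes Ptbp1 and Ptbp2, the quaking gene Qk, and the RNA binding motif genes Rbm20, Rbm24 and Rbm38. All 10 listed genes were found among the 22380 protein-coding genes of the GENCODE annotation of mm9, and the tags lying on the strand of each gene, from its annotated start to its end, were counted. In HITS-CLIP, UV light joins a protein to its RNA in frozen tissue, RNase A shortens the RNA, an antibody pulls the protein out, and the short RNA pieces still attached, called tags, are sequenced. Here Mbnl2 was purified with the antibody mAb 3B4 from WT muscle and from muscle of Mbnl1-/- mice (KO), 3 mice of each genotype, aged 15 to 16 weeks and given as C57BL/6, at 38.6 U/ml (high) or 0.0386 U/ml (low) RNase A. The Mbnl1 KO carries the ΔE3 allele in every tissue of the animal, so effects outside the muscle fibre are part of the model, and the methods name a C57BL/129 background for related compound knockouts. The 3 mice of a genotype are merged into 1 table in which the RNase conditions are not told apart, so the spread between mice is unknown, no test between genotypes was possible, and each interval covers counting error only.

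Splicing regulators are RNA binding proteins that decide which exons of a pre-mRNA are kept. Many of them bind each other's transcripts, and often their own, close to alternative exons or in the 3′ UTR, the stretch after the coding sequence that governs stability, translation and location of the mRNA. Mbnl2 is a muscleblind zinc finger protein that binds RNA around the core YGCY (Y is C or U), which in DNA letters is TGCT or TGCC with T at the start and CGCT or CGCC with C. CELF proteins are known to oppose muscleblind proteins at many exons of heart and skeletal muscle, while RBFOX, quaking and several RBM proteins favour exon patterns of mature muscle and PTB proteins mostly hold exons out of the mRNA.

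Depth was 343554 unique tags (5176203 reads) in WT and 476543 (50329234 reads) in KO muscle, and 79.0% of WT tags against 59.5% of KO tags rested on 1 read. Tags whose reference sequence was at least 70% of one base, called single-base tags below, made up 44.0% of WT and 17.0% of KO tags on assembled chromosomes. KO/WT ratios are scaled to the size of each table, which multiplies them by 0.721 with all tags and by 0.492 with single-base tags left out, and both are given for each of the 10 genes as a whole. Levels are in CPM, tags per 1000000 tags of the table. All 11 muscle fibre markers carried tags, 1052 in WT and 3789 in KO muscle, so the tissue label had its defining transcripts. Fibroblast markers had 182 and 792 tags, endothelial markers 61 and 113, macrophage markers 19 and 31, nerve markers 32 and 49 with Tubb3 at 0, and adipocyte markers 6 and 40. Satellite cell markers had 8 and 11 tags and blood markers 5 and 6, with Hbb-b2 at 0. Their part in the results was not tested. The targeted gene Mbnl1 had 100 WT and 452 KO tags over its whole body, which does not check the labels, since tags in the deleted part were not counted apart.

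Over the 10 genes together, 272 WT and 949 KO tags were counted. That was 0.0792% of the WT table and 0.199% of the KO table, a scaled KO/WT ratio of 2.52 (95% interval 2.20 to 2.89). Leaving out single-base tags, 241 and 925 tags gave 1.89 (1.64 to 2.18). All 10 genes had a higher level in the KO table, as did 79.9% of the 3888 protein-coding genes with at least 20 tags, and the median of the 10 ratios was 2.39. The ratio was at least 2 at 8 of the 10 genes, whereas 41.6% of those 3888 genes reached that fold and the median gene stood at 1.75. Among the 1323 genes with at least 50 tags that share was 48.1%. In 7 of the 10 genes the whole interval was above 1, against 38.6% of those 3888 genes. More tags narrow an interval, and Qk, Celf2, Rbfox1 and Rbfox2 ranked 37, 42, 65 and 185 by tags among the 22380 genes. No share of intervals was computed among genes with as many tags, here or in the other settings. With single-base tags left out, 4 of the 10 genes were at 2 or more, against a background of 29.1%, and 7 had an interval above 1, against 26.5%. With tags of at least 2 reads, 3 genes were at 2 or more, against 31.1%, and 3 had an interval above 1, against 18.7%. Both filters together left 2 and 2 genes, against 22.6% and 11.1%. Scaling the tables by sense tags of protein-coding genes, rather than by all tags, lowers the factor from 0.721 to 0.447 for every gene alike and left 3 genes at 2 or more, against 16.6%, and 4 with an interval above 1, against 14.8%, with the median gene at 1.08. Each background share counts genes with at least 20 tags in its setting. Ptbp1 did not reach that number in any of these settings, nor did Rbm38 with tags of at least 2 reads, alone or with both filters. Among the members with enough tags, 7 of 9 were at 2 or more with all tags, 3 of 9 without single-base tags, 1 of 8 with at least 2 reads (Qk), 0 of 8 with both filters and 2 of 9 with sense scaling. Counting only those members left the number of intervals above 1 in each setting as given above. These libraries measured bound RNA and not transcript level, so more transcript and more Mbnl2 bound to each transcript cannot be told apart.

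**Figure D1:**
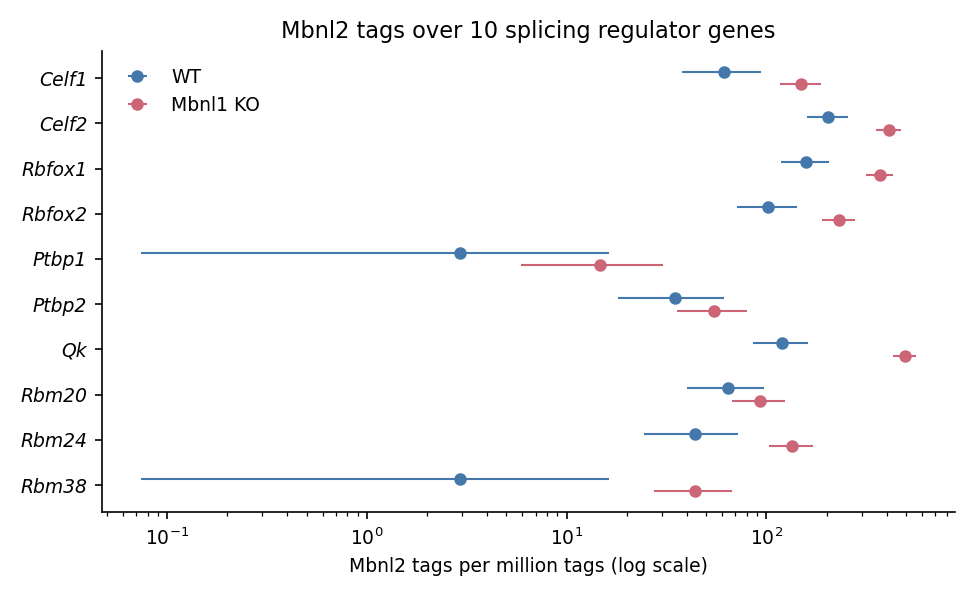
Mbnl2 level over each gene body, in tags per 1000000 tags of the table (CPM) on a log axis, for the merged WT table (blue) and the merged KO table (red), with exact Poisson 95% intervals as bars. The KO point lies to the right of the WT point at all 10 genes, and the bars are separate at 7 of them, the exceptions being Ptbp1, Ptbp2 and Rbm20.

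Because a ratio and the median gene carry the same scaling factor, their order does not depend on how the tables were scaled. With all tags, 8 of the 10 ratios were above the median gene's 1.75, the exceptions being Ptbp2 and Rbm20. The interval itself lay above 1.75 at Qk and Rbm38, as it did at 11.8% of all genes. With single-base tags left out the median gene stood at 1.48, and the intervals of the same pair of genes, from 2.07 upward at Qk and from 1.66 upward at Rbm38, still lay above it, against 7.77% of all genes. With only tags of at least 2 reads, the median gene was at 1.49 and the lower bounds at Qk and Rbm38, 1.47 and 0.729, fell under it, while 3.56% of all genes had an interval above it.

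**Figure D2:**
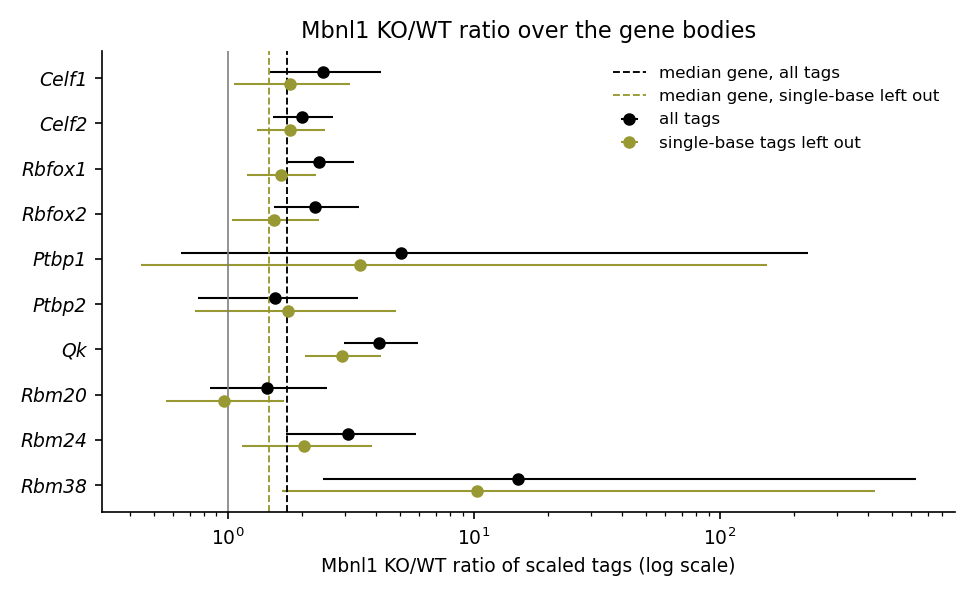
Scaled KO/WT tag ratio over each gene body on a log axis, with exact Clopper-Pearson 95% intervals, for all tags (black) and with single-base tags left out (olive), and dashed lines at the median of all genes with at least 20 tags (1.75 and 1.48). The intervals of Qk and Rbm38 lie to the right of the dashed line of the same setting, and those of Ptbp1, Ptbp2 and Rbm20 span 1.

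Celf1 and Celf2 encode the CELF proteins of muscle, which bind GU-rich RNA, alter exon choice and, in the case of Celf1, promote decay of bound mRNAs. Celf1 (ENSMUSG00000005506.9, chr2:90780539-90859654, plus strand) had 21 WT and 71 KO tags, 61.1 and 149 CPM, for a ratio of 2.44 (1.48 to 4.18), or 1.79 (1.06 to 3.14) without single-base tags. With tags of at least 2 reads Celf1 stood at 1.49 (0.781 to 3.09), an interval that included 1. Its 3′ UTR held 5 WT and 46 KO tags, a ratio of 6.63 (2.65 to 21.4), the highest of the 7 genes with at least 10 tags in the 3′ UTR. Its introns held 13 and 24 tags, and that ratio of 1.33 (0.651 to 2.85) did not separate the tables. Its coding sequence held 3 WT and 0 KO tags, and the interval of that ratio reached 1.74.

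Celf2 (ENSMUSG00000002107.9, chr2:6460751-7002348, minus strand) had 70 WT and 195 KO tags, 204 and 409 CPM, for a ratio of 2.01 (1.52 to 2.68). Single-base tags made up 27.1% of its WT tags and 4.62% of its KO tags, and without them the ratio was 1.79 (1.31 to 2.50). Its 3′ UTR held 15 and 42 tags, a ratio of 2.02 (1.10 to 3.92), whose interval reached below 1 without single-base tags (1.60, 0.820 to 3.35). Its introns held 54 and 151, also a ratio of 2.02 (1.47 to 2.80). Its largest run of overlapping tags, with 8 WT and 39 KO tags, lay inside an annotated copy of the 7SK small nuclear RNA (chr2:6997140-6997460, 321 nt) that sits within the gene on the same strand. The genome holds many copies of 7SK, and whether these tags came from this copy was not tested. The copy held 9 WT and 48 KO tags, and without it Celf2 was left with 61 and 147 tags and a ratio of 1.74 (1.28 to 2.38), no longer past 2-fold. The second run, with 11 WT and 3 KO tags, went the other way, at 0.197 (0.0352 to 0.744), and overlapped a stretch of A in the 3′ UTR of exon 14. It was the only one of 35 tag runs in the 10 genes whose interval lay below 1. The 30 nt around the point of deepest coverage are shown for these runs and for the 2 largest of Celf1, on the gene's strand, with the tetramers of the YGCY core in capitals.
Celf1 3′ UTR, chr2:90856827-90856856, plus strand, 0 WT and 7 KO tags: cctttgaccttgtgttgacctttgaTGCTg
Celf1 3′ UTR, chr2:90857671-90857700, plus strand, 0 WT and 6 KO tags: ctatagtttgtgcaaaaactgactgattta
Celf2 7SK copy, chr2:6997241-6997270, minus strand, 8 WT and 39 KO tags: gtatacgagtagctgCGCTccccTGCTaga
Celf2 3′ UTR, chr2:6464445-6464474, minus strand, 11 WT and 3 KO tags: aaaaaaaaaaaaaaaaaaaaaagttccctc
The second and last of these windows hold none of the 4 tetramers, and 8 WT and 0 KO tags remained in the run of the last one when single-base tags were left out.

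Rbfox1 and Rbfox2 encode RNA recognition motif proteins that bind the letters GCAUG and promote or repress exons depending on which side of the exon they sit. Rbfox1 (ENSMUSG00000008658.8, chr16:6809315-7412572, plus strand) had 54 WT and 176 KO tags, 157 and 369 CPM, with a ratio of 2.35 (1.72 to 3.25) and 1.65 (1.20 to 2.29) without single-base tags. With tags of at least 2 reads Rbfox1 stood at 1.42 (0.915 to 2.28), an interval that included 1. Rbfox2 (ENSMUSG00000033565.9, chr15:76909420-77137483, minus strand) had 35 and 110 tags, 102 and 231 CPM, with a ratio of 2.27 (1.54 to 3.42) and 1.55 (1.04 to 2.35) without single-base tags. The ratios of these paralogs over the whole gene lay within each other's intervals. In the 3′ UTR, Rbfox1 had 6 WT and 30 KO tags and a ratio of 3.60 (1.48 to 10.6), while Rbfox2 had 11 and 25 and a ratio of 1.64 (0.778 to 3.69). Those intervals overlap. In the introns, Rbfox1 had 48 and 146 tags, a ratio of 2.19 (1.57 to 3.11), and Rbfox2 had 24 and 84, a ratio of 2.52 (1.59 to 4.15).

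Tags in Rbfox1 were spread over many introns. The introns below were picked after their values were seen, and no share over single introns of all genes is given. In the numbering of the longest coding transcript of Rbfox1, which has 13 exons, intron 9 held 0 WT and 13 KO tags. That is 3.12-fold higher against a floor of 3 WT counts, with an interval from 2.20. Intron 4 held 2 and 14 tags, a ratio of 5.05 (1.16 to 45.7), and intron 5 held 4 and 21, a ratio of 3.78 (1.28 to 15.2). These last 2 introns flank a 93 nt exon. Without single-base tags both intervals included 1, intron 4 at 3.44 (0.791 to 31.2) and intron 5 at 2.46 (0.824 to 9.90), while that of intron 9 began at 1.499. Introns 1 and 11, which are longer, held 13 and 34 tags and 6 and 9 tags, with ratios of 1.89 (0.970 to 3.89) and 1.08 (0.344 to 3.69). In Rbfox2, intron 2 held 9 tags in WT and 37 in KO muscle, a ratio of 2.96 (1.40 to 6.98), or 2.15 (0.981 to 5.37) without single-base tags. The much shorter intron 6 held 9 and 10, a ratio of 0.801 (0.293 to 2.23). Intron 3 of Rbfox1 (0 WT and 8 KO tags, from 1.23) and intron 1 of Rbfox2 (3 and 15, from 1.02) also had intervals above 1. Without single-base tags both intervals included 1. The windows of 2 runs from each gene follow. After the largest, 4 runs tied at 6 tags in Rbfox1 and 4 tied at 5 in Rbfox2, and the one first on the chromosome is shown, with a tied repeat in intron 2 of Rbfox2 that was chosen after its sequence was seen.
Rbfox1 3′ UTR, chr16:7411452-7411481, plus strand, 0 WT and 8 KO tags: aatatcagcaagctgttccctgagtagtgt
Rbfox1 intron 4, chr16:7291958-7291987, plus strand, 0 WT and 6 KO tags: cattttccttttggttggtttcttttcttc
Rbfox2 3′ UTR, chr15:76910059-76910088, minus strand, 1 WT and 6 KO tags: ccgtcagcattcagcctgtgaatagctaga
Rbfox2 3′ UTR, chr15:76912541-76912570, minus strand, 1 WT and 4 KO tags: cccaagccaaagtttggtttgttgtTGCTa
Rbfox2 intron 2, chr15:77017236-77017265, minus strand, 0 WT and 5 KO tags: TGCTtgttTGCTTGCTTGCTTGCTtgtttg
The first 3 of these windows hold none of the tetramers and the repeat in Rbfox2 holds 5, while the windows of the other 3 tied runs in Rbfox1 hold 2, 2 and 1.

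Ptbp1 and Ptbp2 encode polypyrimidine tract binding proteins, the first found in most tissues and the second best known from neurons. Ptbp1 (ENSMUSG00000006498.9, chr10:79317172-79327516, plus strand) had 1 WT and 7 KO tags. Its ratio was 5.05 (0.648 to 227), or 3.44 (0.442 to 155) without single-base tags, and no difference was detectable at this depth. Ptbp2 (ENSMUSG00000028134.7, chr3:119421660-119486306, minus strand) had 12 and 26 tags, 34.9 and 54.6 CPM, for a ratio of 1.56 (0.761 to 3.40). Single-base tags made up 41.7% of its WT tags, and without them 7 and 25 tags gave 1.76 (0.739 to 4.81). Neither interval separated the tables, and the ratio of Ptbp2 was below 1, at 0.664 (0.276 to 1.70), with tags of at least 2 reads. Its 2 tag runs lay in introns 5 and 7 and had opposite balances, neither separating the tables.
Ptbp2 intron 5, chr3:119452891-119452920, minus strand, 5 WT and 1 KO tags: tttttttttttttttttggcttggttagat
Ptbp2 intron 7, chr3:119449109-119449138, minus strand, 2 WT and 3 KO tags: acgtaTGCTTGCTgacggtttctatacaga
All 6 tags of the run in intron 5 were single-base tags. The 3′ UTRs of Ptbp1 and Ptbp2 each held 0 WT and 4 KO tags, for which the interval of the ratio began at 0.476 and so included 1.

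Qk encodes the quaking proteins, STAR family RNA binding proteins that regulate splicing, stability and translation in muscle and in myelinating glia, and whose alternative 3′ ends give tails that set whether the protein is nuclear or cytoplasmic. Qk (ENSMUSG00000062078.7, chr17:10399336-10512245, minus strand) carried the most tags of the 10 genes over both tables, 41 in WT and 235 in KO muscle, or 119 and 493 CPM, although in WT muscle Celf2 with 70 and Rbfox1 with 54 had more. In tags of both tables it ranked 37 among the 22380 protein-coding genes. Its ratio was 4.13 (2.96 to 5.91) with all tags and 2.91 (2.07 to 4.20) without single-base tags. The 3′ UTR held 28 WT and 182 KO tags, a ratio of 4.69 (3.14 to 7.25), and the introns 13 and 53, a ratio of 2.94 (1.58 to 5.88). Both compartments were higher in the KO table by more than counting error, the introns also without single-base tags (11 and 49 tags, 2.19, interval from 1.12).

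The 3′ UTR of Qk consists of 2 separate pieces that belong to transcripts with alternative ends, with like ratios. The piece at chr17:10403055-10408298 (5244 nt, used by 4 annotated coding transcripts) had 15 WT and 97 KO tags, a ratio of 4.66 (2.69 to 8.65). The piece at chr17:10399336-10402482 (3147 nt, used by 1 coding transcript) had 13 and 85 tags, a ratio of 4.71 (2.61 to 9.21). The 3′ UTR tags formed many runs of moderate size rather than 1 dominant peak. Of the 35 tag runs in the 10 genes, 11 lay in Qk, and all 11 had a ratio above 1, with 3 intervals above 1. The largest had 4 WT and 15 KO tags, a ratio of 2.70 (0.861 to 11.2). The next had 2 and 16, a ratio of 5.77 (1.36 to 51.7). A run at chr17:10399464-10399539, near the end of the gene, had 0 WT and 13 KO tags. Against a floor of 3 WT counts that is 3.12-fold higher, with an interval from 2.20. Another at chr17:10406343-10406421 had 1 and 12, a ratio of 8.65 (1.28 to 370). The windows of the 2 largest runs show that a tetramer can be frequent in one and missing from the other.
Qk 3′ UTR, chr17:10401612-10401641, minus strand, 4 WT and 15 KO tags: aagccaTGCTTGCCtattTGCTgtatacat
Qk 3′ UTR, chr17:10400367-10400396, minus strand, 2 WT and 16 KO tags: ttgttttgtactcagctagctttgatttaa
The former holds 3 of the tetramers and the latter 0 in this window.

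Rbm20, Rbm24 and Rbm38 encode RNA recognition motif proteins of striated muscle. Rbm20 represses exons of titin and other sarcomere genes, Rbm24 promotes inclusion of muscle exons, and Rbm38, its paralog, acts on splicing and on the stability of cell cycle mRNAs during myogenic differentiation. Rbm20 (ENSMUSG00000043639.7, chr19:53751796-53941570, plus strand) had 22 WT and 44 KO tags, 64.0 and 92.3 CPM, for a ratio of 1.44 (0.846 to 2.53). Without single-base tags the ratio was 0.962 (0.563 to 1.69), so its direction depended on that setting, and it was the lowest of the 10 in both settings. Its tags were intronic with few exceptions, 19 in WT and 41 in KO muscle, and formed no run of 5. The 3′ UTR held 1 and 2 tags.

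Rbm24 (ENSMUSG00000038132.5, chr13:46513669-46526459, plus strand) had 15 WT and 64 KO tags, 43.7 and 134 CPM, for a ratio of 3.08 (1.73 to 5.81) and 2.03 (1.14 to 3.85) without single-base tags. All but 1 of the WT tags and 54 of the KO tags lay in the 3′ UTR, where the ratio was 2.78 (1.52 to 5.42). Without single-base tags that ratio was 1.83 and its interval, 0.998 to 3.57, included 1. With tags of at least 2 reads, 12 and 37 tags were left and the ratio was 1.15 (0.587 to 2.42). Rbm38 (ENSMUSG00000027510.10, chr2:172845999-172860235, plus strand) had 1 WT and 21 KO tags, 2.91 and 44.1 CPM. Its ratio of 15.1 (2.43 to 626) was the highest of the 10 and rests on a single WT tag, as does the 10.3 (1.66 to 427) without single-base tags. The 21 tags fell on 9 in the 3′ UTR, 9 in introns, 2 in coding sequence and 1 in another exon, and 16 of them lay where a transcript on the opposite strand, Gm14453, overlaps the gene. The windows of the largest runs of Rbm24 and Rbm38 follow.
Rbm24 3′ UTR, chr13:46526084-46526113, plus strand, 7 WT and 28 KO tags: tcctcaatTGCTttccccctgtggatctca
Rbm24 3′ UTR, chr13:46526125-46526154, plus strand, 2 WT and 9 KO tags: ctcatggcatcccCGCTttcctcgtgtagt
Rbm38 3′ UTR, chr2:172859160-172859189, plus strand, 0 WT and 5 KO tags: cccataTGCTGCCtcaccTGCTgcagccac
The larger run of Rbm24 had a ratio of 2.88 (1.23 to 7.82), or 1.97 (0.840 to 5.34) without single-base tags, and its deepest point lay 361 nt from the end of the gene. Each of the 3 windows holds at least 1 tetramer, with 3 in Rbm38.

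**Figure D3:**
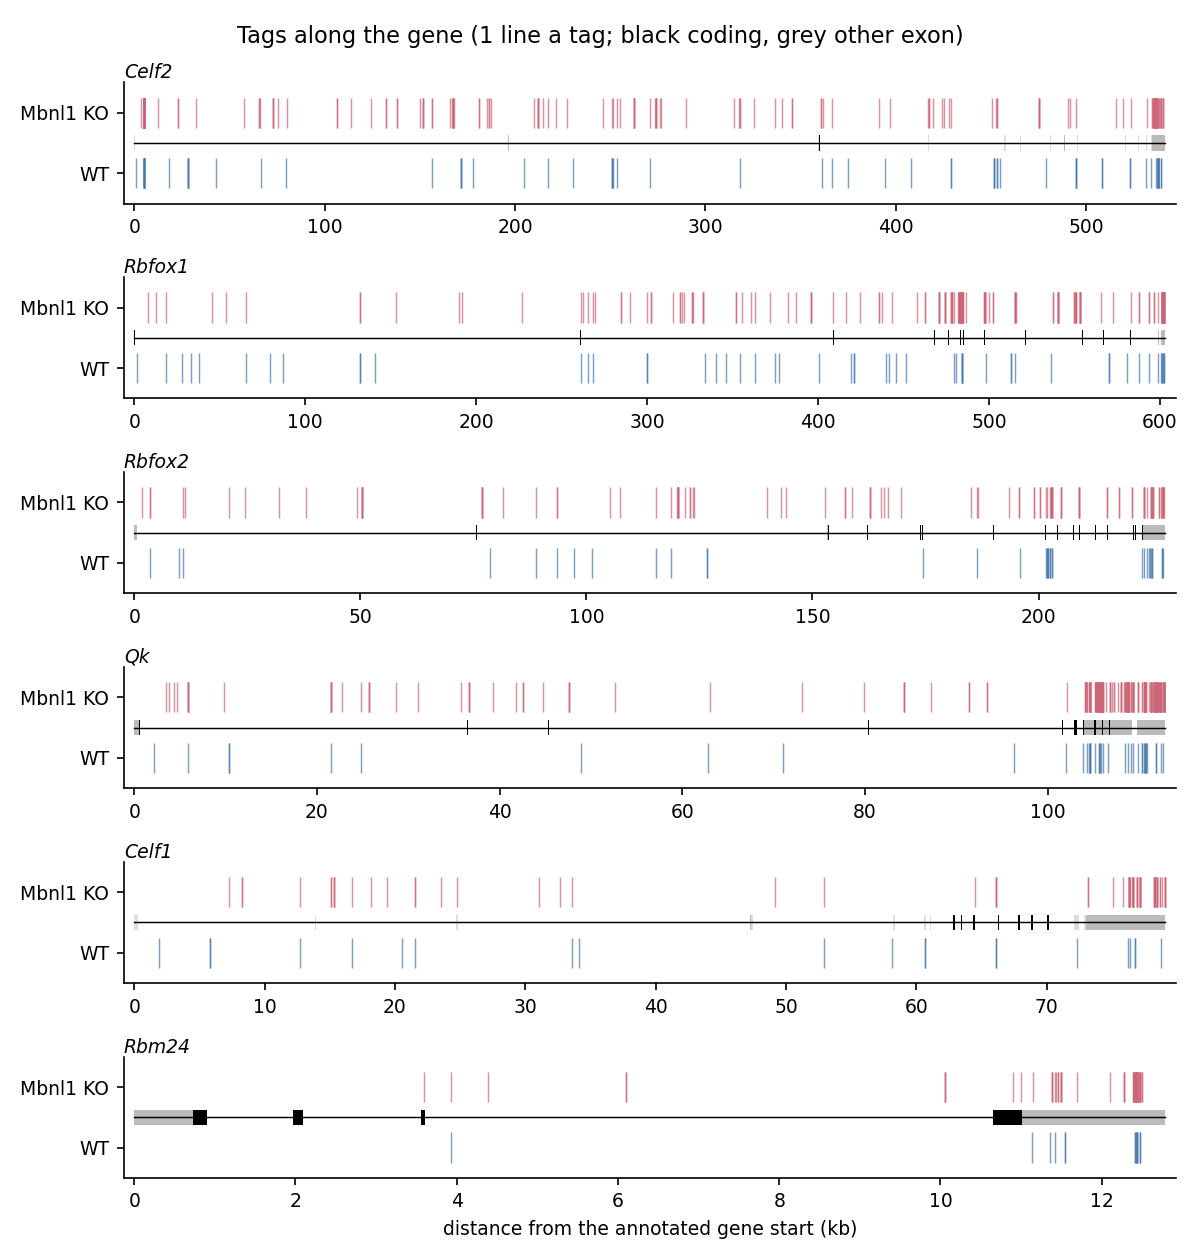
Position of each Mbnl2 tag, 1 line a tag at its midpoint, along 6 of the genes from the annotated start (0) to the end in kb, for KO (red, above) and WT (blue, below), with coding exons in black and other exon sequence in grey. Tags crowd over the 3′ UTR of Qk, Celf1 and Rbm24 at the right end, while in Celf2, Rbfox1 and Rbfox2 most lie in introns.

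Sorted by compartment, the difference between the tables was larger in the 3′ UTRs of the 10 genes than in their introns, as it was over all genes. The 3′ UTRs held 81 WT and 398 KO tags, a ratio of 3.54 (2.78 to 4.56), or 2.48 (1.94 to 3.20) without single-base tags. The introns held 185 and 540, a ratio of 2.10 (1.78 to 2.50), or 1.63 (1.36 to 1.96) without them. The 2 intervals did not overlap in the first setting and met in the second. The 3′ UTRs accounted for 29.8% of WT tags (24.4 to 35.6) and 41.9% of KO tags (38.8 to 45.2) of the 10 genes. Coding sequence held 6 and 9 tags, a ratio of 1.08 (0.344 to 3.69), and the 5′ UTRs held 0 in either table.

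Of the 7 genes with at least 10 tags in the 3′ UTR, 6 had a ratio there of at least 2, the exception being Rbfox2, against 78.8% of 1709 protein-coding genes with that many 3′ UTR tags. Their median of 3.60 stood beside a median of 3.12 over those 1709 genes. An interval above 1 was found at 5 of the 7, against 57.5%. With single-base tags left out, 4 of the 7 were at 2 or more, against 54.2%, and 3 had an interval above 1, against 33.5%. These shares were near the background. In introns, 4 of the 7 genes with at least 10 tags (Celf2, Rbfox1, Rbfox2 and Qk) were at 2 or more, against 24.1% of 4779 genes, with a median of 2.02 beside 1.27. At these same 4 genes the interval was above 1, against 13.7%. Their introns held from 13 WT and 53 KO tags (Qk) to 54 and 151 (Celf2), where the background minimum was 10. No share of intervals was computed among introns with as many tags. Without the 7SK copy, the introns of Celf2 had 45 WT and 103 KO tags and a ratio of 1.65 (1.15 to 2.40), which leaves 3 of the 7 at 2 or more. Celf1, Ptbp2 and Rbm20 made up the other 3, with intronic ratios from 1.32 to 1.56. With single-base tags left out, 1 of the 7 intronic ratios, that of Qk, remained at 2 or more, against a background of 18.7%, and 4 intervals lay above 1, against 8.05%.

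Tag density allowed the genes to be ordered by how much Mbnl2 was bound per length. In the 3′ UTR of KO muscle, Rbm24 was highest at 63.8 CPM per kb, followed by Qk at 45.5, Rbfox1 at 22.6, Celf1 at 15.7, Rbm38 at 13.7, Celf2 at 11.8, Rbfox2 at 10.1, Ptbp2 at 5.28, Ptbp1 at 3.92 and Rbm20 at 1.34. Neighbours in that order were apart by more than counting error at 2 steps, from Rbm24 to Qk (density ratio 1.40, interval 1.01 to 1.91) and from Qk to Rbfox1 (2.02, 1.37 to 3.08). In WT muscle, Rbm24 (22.9) and Qk (9.71) again led and only the step between them was resolved, at 2.36 (1.15 to 4.64). Intronic densities were far lower. They ran in KO muscle from 0.470 CPM per kb at Rbm20 to 1.66 at Rbm38, and no neighbouring pair was apart in either table.

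**Figure D4:**
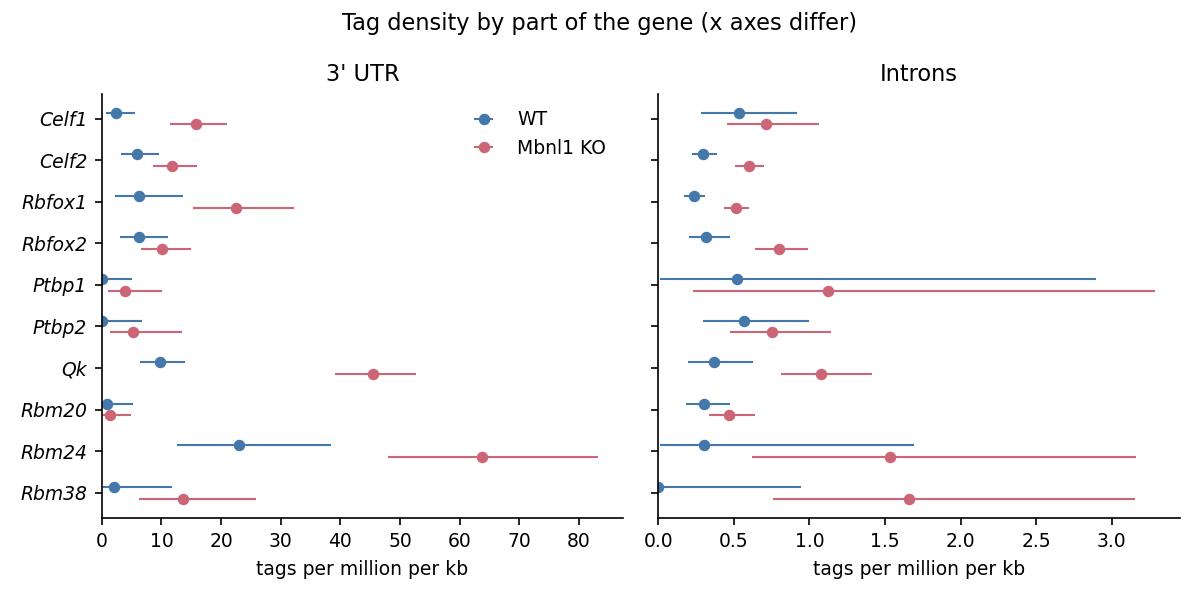
Mbnl2 CPM per kb in the annotated 3′ UTR (left) and introns (right) of each gene, with exact Poisson 95% intervals, for WT (blue) and KO (red); the axes differ in scale. Rbm24 and Qk lead in the 3′ UTR, at 63.8 and 45.5 in KO muscle, and every intronic value is below 2.

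Pooled over both tables, tags of the 10 genes formed 35 runs of at least 5 overlapping tags, which held 342 tags. Of these runs, 21 lay in a 3′ UTR and 14 in an intron, 33 had a ratio above 1, against 72.9% of 7395 such runs in all protein-coding genes, and 14 held 0 WT tags. No share of runs with 0 WT tags was computed over all genes. The interval lay above 1 at 7 runs, against 13.8% of those 7395 runs, and below 1 at 1 run, against 9.93%. With single-base tags left out, 2 runs kept an interval above 1, the one in the 7SK copy of Celf2 and the one near the end of Qk, against a background of 6.05%. Ptbp1 and Rbm20 had no run of that size.

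Several of these genes are themselves spliced in alternative forms, so tags were counted over 21 annotated alternative exons and 500 nt of intron on each side. Together these windows held 7 WT and 46 KO tags, a ratio of 4.74 (2.12 to 12.4), or 3.16 (1.42 to 8.31) without single-base tags. Over all protein-coding genes, 419 such windows had at least 5 tags, with a median ratio of 2.16. Of those 419, 52.7% were at 2 or more and 23.4% had an interval above 1. In the 10 genes 4 windows had at least 5 tags, 2 in Rbfox1 and 1 each in Rbfox2 and Qk. Only these 4 can be set beside that background, since the sum also pools windows with fewer tags. Their ratios were 2.64 and 1.68 in Rbfox1 (0 WT tags, set to a floor of 3 counts), 0.481 in Rbfox2 and 5.05 in Qk. The intervals began at 1.81, 1.04, 0.0401 and 1.16. Without Qk, whose 4 nt annotated exon (chr17:10407119-10407122) lies beside 3′ UTR sequence of other transcripts and had 2 WT and 14 KO tags, the sum was 5 and 32, a ratio of 4.61 (1.78 to 15.2).

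Rbfox1 held the most KO tags in these windows. Its 6 alternative exon windows held 0 WT and 20 KO tags, 4.81-fold higher against a floor of 3 WT counts (interval from 3.56). With single-base tags left out they held 0 and 19, 3.12-fold higher against that floor (interval from 2.30). The 93 nt exon (chr16:7292278-7292370), which is known to encode part of the RNA recognition motif, had 0 and 11 tags in its window, 6 upstream and 5 downstream. That is 2.64-fold higher against the same floor (interval from 1.81, or from 1.10 without single-base tags). The 6 upstream tags formed the run in intron 4 shown above, which ends 285 nt from the exon. Several tags on each side share a midpoint, and the interval counts each of them as independent. The 54 nt exon (chr16:7306501-7306554) had 0 and 7, all reaching into the downstream intron and 1 overlapping the exon. The interval of that ratio began at 1.04, and at 0.709 without single-base tags, where it included 1. With 200 nt of intron in place of 500, the 93 nt exon kept 0 and 4 tags (interval from 0.476) and the 54 nt exon 0 and 2 (from 0.135), so neither separated the tables, and the 6 windows together kept 0 and 7 (from 1.04). With tags of at least 2 reads, 7 KO tags remained at the 93 nt exon and 2 at the 54 nt exon. The 40 nt and 43 nt exons of Rbfox1, of which the former is typical of brain and the latter of muscle, had 0 tags in both tables, which allows up to 8.73 CPM in WT and 6.30 in KO muscle.

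In the longest coding transcripts, exons 4 to 7 of Rbfox1 and exons 5 to 8 of Rbfox2 have the same 4 lengths, 54, 93, 61 and 54 nt, and were set side by side after the data were seen, whether or not an exon is annotated as alternative. At the 93 nt exon of Rbfox2 (chr15:76936007-76936099) 3 WT and 2 KO tags were counted, all downstream, a ratio of 0.481 (0.0401 to 4.20) beside the 0 and 11 of Rbfox1. The interval for Rbfox1 began at 1.81, so these intervals overlap. Exon 8 of Rbfox2 (chr15:76929869-76929922), the counterpart by order of the 54 nt exon with 0 and 7 tags in Rbfox1, had 0 in either table. The 61 nt exon between them had 0 and 6 tags in Rbfox1 and 0 in either table in Rbfox2, and the earlier 54 nt exon had 0 in either table in Rbfox1 and 0 and 1 in Rbfox2. The 43 nt exon of Rbfox2 had 0 and 2. The 5 alternative exon windows of Rbfox2 together held 3 and 5 tags, a ratio of 1.20 (0.234 to 7.74), whose interval overlaps that of Rbfox1. The 5 windows of Ptbp1 held 1 and 4 tags, and those of Celf1, Celf2, Rbm20 and Rbm38 held at most 2 tags in either table. Ptbp2 and Rbm24 had no annotated exon of this kind.

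**Figure D5:**
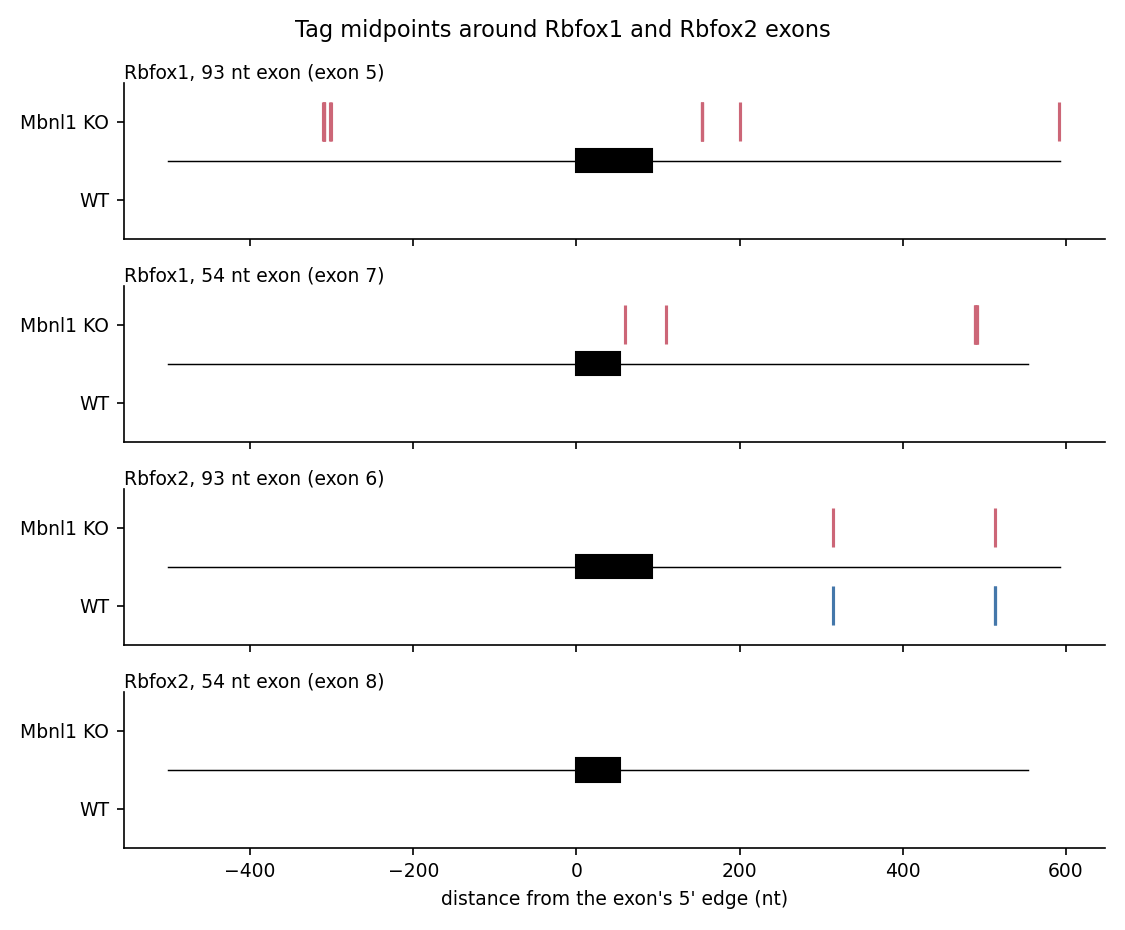
Midpoints of Mbnl2 tags around the 93 nt exon and the 54 nt exon that follows it in Rbfox1 and Rbfox2 (black boxes), in nt from the exon's 5′ edge, for KO (red, above) and WT (blue, below), with 500 nt on each side; tags at the same place coincide in 1 line. Tags of Rbfox1 come from KO muscle, 11 at the 93 nt and 7 at the 54 nt exon, while in Rbfox2 the 93 nt exon has 3 WT and 2 KO tags at shared places and the 54 nt exon has 0.

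Intronic tags were then divided by their distance from the nearest exon, a division made after the first values were seen. Within 500 nt of an exon, the 10 genes had 21 WT and 66 KO tags, a ratio of 2.27 (1.37 to 3.90), and farther away 164 and 474, a ratio of 2.08 (1.74 to 2.50). The densities near exons were 0.606 and 1.37 CPM per kb, and those farther away 0.282 and 0.588. That likeness rests on Rbfox1, and without it the other genes had 20 and 42 tags near exons, a ratio of 1.51 (0.869 to 2.72), and 117 and 352 farther away, a ratio of 2.17 (1.75 to 2.70), intervals that overlap. Rbfox1 itself had 1 WT and 24 KO tags near exons, a ratio of 17.3 (2.82 to 712), and 47 and 122 farther away, a ratio of 1.87 (1.33 to 2.68). The 2 intervals did not overlap, and the near tags include those of the alternative exon windows. Celf2 had 3 and 2 tags near exons and 51 and 149 farther away, with ratios of 0.481 (0.0401 to 4.20) and 2.11 (1.52 to 2.95). Its tags farther away include the 9 WT and 48 KO tags of the 7SK copy, as do the sums farther away.

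Tags were searched for the 4 YGCY tetramers on the strand of the gene and not on the other, with overlapping matches counted. At least 1 was present in 45.2% of the WT tags of the 10 genes (39.2 to 51.3) and 51.6% of the KO tags (48.4 to 54.9). Leaving out single-base tags, these were 49.8% and 52.6%. Over all tags on the strand of protein-coding genes the shares were 34.3% and 50.02%, and 45.8% and 53.4% without single-base tags. Of the 35 windows of 30 nt around the deepest point of a run, 17 (48.6%) held a tetramer, as did 49.5% of 7395 such windows in all protein-coding genes. Windows of the same length tiled over the 10 genes held one in 28.6% of 3′ UTR and 24.7% of intron windows. The share among summit windows of the 10 genes was near that of all genes, and 18 of the 35 held none.

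The wider families were counted from a list of 24 related regulators, of which 23 were matched, 12 had at least 20 tags and Celf3 had none. Of these 12, 4 were at 2 or more (Rbm6, Rbm25, Rbms1 and Khdrbs1), against 41.6% of all genes, and the median was 1.67, close to the median gene at 1.75. An interval above 1 was found at 3 of them, all but Rbm25 of those 4, against 38.6% of all genes. Without single-base tags 8 genes had at least 20 tags, and 2 were at 2 or more, against 29.1%. An interval above 1 was left at 2, against 26.5%. Rbm6 fell to 1.78 (0.795 to 4.51) and Rbm25 to 1.84 (0.588 to 7.64). With all tags Raver2, a partner of PTB proteins, was the 1 gene at 0.5 or less (3.76% of all genes). It was also the 1 with an interval below 1 (3.83%), with 19 WT and 9 KO tags and a ratio of 0.341 (0.136 to 0.792). Without single-base tags 6 and 2 remained, under the minimum of 20, with a ratio of 0.164 (0.0162 to 0.917). Summed, the list had 194 WT and 445 KO tags, a ratio of 1.65 (1.39 to 1.97), or 1.45 (1.19 to 1.77) without single-base tags. Of its members with at least 50 tags, Rbms1 had 28 and 111, a ratio of 2.86 (1.87 to 4.49), and Rbms3 had 46 and 77, a ratio of 1.21 (0.827 to 1.78). Without single-base tags these were 2.42 (1.52 to 4.01) and 0.910 (0.611 to 1.37). Both encode single-strand interacting RNA binding motif proteins. Rbfox3, the neuronal RBFOX gene, had 18 and 21 tags, a ratio of 0.841 (0.427 to 1.67), or 0.929 (0.392 to 2.37) without single-base tags, where its interval overlaps those of Rbfox1 and Rbfox2. For comparison, the 27 SR and hnRNP genes had 10 members with at least 20 tags, a median of 3.12 and a summed ratio of 2.99 (2.38 to 3.80). Mbnl1 and Mbnl2 had ratios of 3.26 (2.62 to 4.09) and 2.75 (1.86 to 4.17), while Mbnl3 had 3 and 5 tags.

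The opposite strand of the same gene bodies served as a background counted the same way. It held 144 WT and 120 KO tags, a ratio of 0.601 (0.468 to 0.771), in the direction opposite to the sense strand. Antisense tags made up 34.6% of all WT tags over these genes (30.05 to 39.4) and 11.2% of KO tags (9.40 to 13.3), and with single-base tags left out 18.9% and 8.23%. The antisense ratio without single-base tags was 0.729 (0.513 to 1.04). Qk had 22 and 11 antisense tags beside its 41 and 235 sense tags, and Rbm20 had 21 and 29 beside 22 and 44. With single-base tags left out, Qk kept 2 and 7 antisense tags and Rbm20 3 and 23, both opposite in direction to the sum, and Rbfox1 had 23 and 26 beside its 52 and 174 sense tags. Rbm38 had 0 antisense tags in both tables. The tables thus differed in the share of background as well as in the level of sense tags, and its part in the sense ratios was not tested.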

How the data were processed

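Tags of Mbnl2 came from quadriceps of 3 WT and 3 Mbnl1-/- (KO) mice, in 1 table per genotype. The authors removed reads of low quality, used BWA (version not given in the sources used here) to place the rest on mm9, dropped short sequences and likely PCR duplicates, and then pooled the 3 mice. Their methods give 20 nt as the lower limit, but tags ran from 18 to 33 nt, with 0.249% of WT and 0.193% of KO tags under 20 nt. The count the authors deposited with each tag gives its reads and is not normalized. Each tag was used once here, whatever its reads.

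A region was given every tag that touched it on its strand (GENCODE vM1, mm9), using Python 3.11.15, numpy 2.4.6, pandas 2.3.3, scipy 1.17.1 and samtools 1.23.1, and the number was divided by the size of the table. Compartments were assigned by tag midpoint, with 3′ UTR before coding sequence, 5′ UTR, other exon and intron. Ratios have exact Clopper-Pearson 95% intervals of the KO share, which cover counting error only. They treat tags at the same place as independent, and tags were collapsed by place for whole genes only. With 1 table per genotype no p-value was computed. Tag runs are overlapping tags of both tables pooled, at least 5. Counting and intervals were tested on simulated counts. Figures were drawn with matplotlib 3.10.9.

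The members and the gene lists were chosen with earlier results of these data known. All 10 genes were named, with the 2 largest runs of each (ties by position), compartments of at least 10 tags, alternative exon windows of at least 5 tags and family genes of at least 50 tags. Raver2, Rbfox3, Rbm6, Rbm25, Khdrbs1 and the single introns of Rbfox1 and Rbfox2 were named after their values were seen. Qk has a second annotated identifier, ENSMUSG00000044407.6, which held 0 tags, and the longer was used. Rbm4 was not matched, and Ptbp3 and Hnrnpll were found under the older names Rod1 and Hnrpll. The alternatives were other scalings, collapsing of tags, tag quality and length filters, midpoint counting and other regions. Leaving out the 7SK copy, leaving out Qk at alternative exons, matching Rbfox2 exons to those of Rbfox1, and dividing introns by distance were added after the data were seen.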

Additional observations from a re-analysis of the deposited data

Results flagged for a closer look

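Tags downstream of the annotated gene ends lie outside the gene bodies counted above, and 1 gene had many. In the 5000 nt after the end of Qk (chr17:10394336-10399335) 6 WT and 26 KO tags were found on its strand, a ratio of 3.12 (1.26 to 9.28). None of these was a single-base tag, but the scaling without such tags gave 2.13 (0.858 to 6.33), an interval that included 1. Over all 10 genes the downstream windows held 7 and 28 tags, a ratio of 2.88 (1.23 to 7.82), or 1.97 (0.840 to 5.34) without single-base tags, of which Qk gave all but 1 WT and 2 KO tags. These values drew attention because, with all tags, the KO level was above the WT level by more than counting error in sequence that no comparison above uses. No share over the downstream windows of other genes was computed, so how unusual the values are is unknown. The 3.12 of Qk was below the 4.13 of its gene body. It equalled the median of 3.12 over the 3′ UTRs of 1709 genes.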

How the results depend on the processing

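All 10 gene ratios stayed above 1 with raw tags, with identical tags or tags of the same 5′ end collapsed, with midpoint counting, with scaling by tags that lie neither on chromosome M nor in the 100 largest clusters, and with 5000 nt downstream added. Other settings moved them. The count of genes at 2 or more, 8 with all tags, was 4 without single-base tags, 3 with tags of at least 2 reads and 2 with both filters. It was 3 when tables were scaled by sense tags of protein-coding genes and 6 with identical tags collapsed. It rose to 10 with raw tags, and to 10 with tags of at least 25 nt, counting genes left with 0 WT tags. The count with an interval above 1, 7 with all tags, was 3 with at least 2 reads (Celf2, Rbfox2 and Qk). It was 2 with both filters (Celf2 and Qk) and 4 with sense scaling (Rbfox1, Qk, Rbm24 and Rbm38). Raw tags gave 9 and tags of at least 25 nt gave 8. The median ratio of 2.39 became 1.39 with both filters, 1.48 with sense scaling, 3.98 with exons only and 7.09 with tags of at least 25 nt. Rbm20 fell under 1 without single-base tags (0.962), with at least 2 reads (0.902), with both filters (0.757), with sense scaling (0.894) and with exons only (0.721). Ptbp2 did so with at least 2 reads (0.664), both filters (0.940) and sense scaling (0.969), and Rbm24 with both filters (0.914). Requiring 10 tags left 10 of the 35 tag runs. The causes were not tested. Depth limits Ptbp1 and Rbm38 most, with 1 WT tag each. No value was given where a filter left 0 WT tags, and the medians with exons only and with tags of at least 25 nt count such genes as infinite. No paired analysis was possible because the mice of each genotype are merged into 1 table, and for the same reason no mouse could be left out in turn.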
